A study of Mus musculus with 2 samples.

Results

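The cells described here are 335 neural cells among 13826 cells of mouse somitic gastruloids, 226 of 6646 untreated and 109 of 7180 treated with dTAG-13. They were chosen by their transcripts, counted as unique molecular identifiers (UMIs). A member cell had at least 1 UMI of Sox2, none of T or Meox1, and at least 1 UMI of 3 or more of the 6 neural genes Pax6, Sox1, Msx3, Rfx4, Pou3f2 and Pax3. Sox2 marks neural and pluripotent progenitors, T (Brachyury) marks primitive streak, axial progenitors and early mesoderm, and Meox1 marks somites. The working name of the set is spinal cord progenitor-like cells. The data went against the spinal cord part of that name for 58 untreated and 76 dTAG-13 members, which held few UMIs of trunk Hox genes, so the set is called member cells below.

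A gastruloid is a ball of cultured stem cells that develops tissues of the early embryo, and the somitic kind, embedded in Matrigel, forms somites. Both libraries came from E14 cells with a triple reporter whose endogenous Zeb2 gene carries an HA-FKBP12F36V degron tag, so the untreated cells carry the tag too. Both pools received 3 uM CHIR99021, an activator of WNT signalling, at 48 h. The treated pool received 100 nM dTAG-13, a small molecule that directs the tagged protein to degradation, at 72 and 96 h. Each library was a pool of about 32 gastruloids sorted for live cells and run on the 10x Genomics 3′ assay, and the control is untreated in the sample labels while the series text names DMSO. With 1 library per group no difference could be tested across replicates, so treatment and library cannot be told apart in any comparison below. Intervals are exact 95% intervals that cover counting error only.

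As background, the embryonic spinal cord forms from caudal axial progenitors that leave the T-positive state, keep Sox2 and switch on neural progenitor factors. Its progenitors are ordered along the head-to-tail axis by Hox genes, whose higher paralogue numbers mark more posterior levels, and along the dorsoventral axis by BMP and WNT signals from the dorsal side and hedgehog signals from the ventral side. Notch signalling, read out by Hes genes such as Hes5, holds the cells as progenitors. Zeb2 is a zinc-finger factor that represses epithelial genes and acts in neural and mesenchymal development.

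Before filtering, the libraries held 158002807 and 176677276 UMIs in 7276 and 7873 barcodes. After filtering, the median depth per cell was 20520.5 and 20732.5 UMIs, and the members a median of 22467.5 untreated and 24066 with dTAG-13. Mitochondrial UMIs were a median of 4.21% and 4.05% of a member cell. Of 14 barcodes found in both libraries, 1 was a member, in the untreated library. A ranking of doublet scores marked 1 untreated and 8 dTAG-13 members, and 3 dTAG-13 members held UMIs of at least 3 of the naive pluripotency genes Zfp42, Esrrb, Nanog and Dppa5a. Members with UMIs of at least 2 of Pou5f1, Dlx5, Sfn, Foxa2, Tbx6 and Tcf15, genes of other gastruloid cell types, were 12 of 226 (5.31%) and 18 of 109 (16.5%).

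Member cells were a smaller share of the dTAG-13 library. They were 3.40% of untreated cells (2.98 to 3.86) and 1.52% of dTAG-13 cells (1.25 to 1.83), which is 2.24-fold fewer (1.77 to 2.84). The wider population they were drawn from was larger with dTAG-13, since cells with Sox2 and without T and Meox1 were 33.7% of untreated and 42.9% of dTAG-13 cells. Rfx4 and Pax3, a dorsal progenitor factor, were found in 91.2% and 77.9% of untreated members, and each in 80.7% of dTAG-13 members. Sox1, a pan-neural factor, was found in 76.1% and 67.9%, and Pax6, a neural progenitor factor, in 56.6% and 38.5%. Msx3, known for dorsal neural tube expression, was found in 35.0% and 46.8%, and Pou3f2 in 33.2% and 32.1%. These detection rates chose the cells and are given as a description. The members carried 34 different combinations of the 6 genes untreated and 28 with dTAG-13, and the commonest were Sox1, Rfx4 and Pax3 in 35 untreated cells and Pax6, Sox1 and Rfx4 in 10 dTAG-13 cells.

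The threshold cut through a gradient. Just inside it, with 3 of the 6 genes, were 116 untreated and 64 dTAG-13 cells, and just outside, with 2 of 6, were 220 and 148. Fabp7, a lipid-binding protein of radial neural progenitors, stood at 53.5 CPM (the usual scaling of a gene's UMIs to a fixed total) just outside and 86.1 CPM just inside in the untreated library, and at 43.3 and 88.6 CPM with dTAG-13. The naive pluripotency gene Dppa5a stood at 77.9 CPM just outside and 18.3 CPM just inside untreated, and at 423.8 and 17.7 CPM with dTAG-13. In both libraries the cells just outside therefore held more RNA of this gene than those just inside, and most of all with dTAG-13.

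The member cells had neural progenitor transcripts beyond those that chose them. Fabp7 and Crabp1, the only label markers that the rule did not use, were higher in members than in all other cells of the same library. Fabp7 stood at 97.3 CPM in untreated members and 10.9 CPM in the other untreated cells, and at 120.9 against 6.62 CPM with dTAG-13. Crabp1, which binds retinoic acid in the cytoplasm, stood at 927 against 183 CPM untreated and 1302 against 179.9 CPM with dTAG-13. After thinning each cell to 5000 UMIs, 24.3% of untreated and 38.5% of dTAG-13 members held a Fabp7 UMI. In naive pluripotent cells, which should lack it and measure free RNA, the share was 0.402% and 1.01%. These differences follow from choosing neural cells and are not tests.

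Over the whole transcriptome, genes were counted as higher or lower at 1.5-fold or more, on a log2 ratio of CPM with 1 CPM added, among genes with a mean of at least 5 CPM. Members over other cells had 3.36% of genes higher and 5.01% lower untreated, and 4.45% and 6.85% with dTAG-13. Of the 19 neural progenitor genes tested, 12 were higher in members in each library, with a median log2 ratio of 1.18 untreated and 1.54 with dTAG-13, against 0.04 over all genes in both. The largest of these were Fabp7 (3.05 and 4.00), the transcription factor Sox21 (2.83 and 2.74) and Crabp1 (2.34 and 2.85). Ptn, a secreted growth factor of neural progenitors, stood at 843 CPM in untreated and 875 CPM in dTAG-13 members against 239 and 180.2 CPM in the other cells. The Iroquois factors Irx3 (1.65 and 2.10) and Irx5 (1.91 and 1.93) and the Hox cofactor Meis1 (1.87 and 1.94) were also among the highest. The lowest were the naive pluripotency genes Dppa5a (-4.89 and -4.99) and Zfp42 (-3.98 and -3.52), the presomitic and caudal signals Rspo3 (-3.04 and -3.13) and Fgf8 (-2.81 and -2.70), and the somite gene Tcf15 (-3.43 and -2.62).

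The cells nearest to the members in the same gastruloids were the T and Sox2 double-positive cells, which include caudal axial progenitors, and Sox2-positive cells with a Hox9 UMI that the rule left out. Against the double-positive cells, 11 of 19 neural progenitor genes were higher in untreated and 12 of 19 in dTAG-13 members, where 3.46% and 5.07% of all genes were higher and 4.57% and 7.68% lower. Against the Hox9-positive cells, 10 of 19 and 13 of 19 were higher, where 2.54% and 4.84% of all genes were higher and 3.43% and 5.88% lower. In summed counts, Crabp1 was higher in members than in both, at 927 and 1302 CPM. It stood at 95.2 and 102 CPM in double-positive cells and at 179.9 and 98.3 CPM in Hox9-positive cells. Among members its level was higher in those with few UMIs of trunk Hox genes, as given below. Whether it separates the other members cell by cell was not tested. Caudal genes lay on the other side, with all 12 tested lower than in double-positive cells untreated and all 11 with dTAG-13. Fgf8, the caudal signal, stood at 24.7 and 19.6 CPM in members and at 335 and 299 CPM in double-positive cells. Hoxb9 did not separate untreated members, at 599 CPM, from double-positive cells at 537 CPM. Members lack T by the rule, double-positive cells hold it, and the Hox9-positive cells fell short of 3 of the 6 neural genes. The differences in caudal and neural genes therefore follow in part from how the cells were chosen and are not tests.

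Members held less RNA of caudal progenitors than other cells. Of 10 genes of the caudal list tested, 9 were lower in members than in other cells in each library (median log2 ratio -1.45 untreated and -1.04 with dTAG-13), where 5.01% and 6.85% of all genes were lower. T, which the rule sets to 0, is not on that list. Leaving out cells with T favours low caudal genes, so this is a description and not a test. Nkx1-2, a gene of caudal lateral epiblast and pre-neural cells, stood at 17.5 CPM in untreated members against 49.6 CPM in Sox2-positive cells with a Hox9 UMI outside the rule, and at 10.5 against 39.5 CPM with dTAG-13. The list of 25 proneural and neuronal genes summed to 208 CPM in untreated and 294 CPM in dTAG-13 members, against 242 and 301 CPM in the other cells. Between the libraries, 3 of its 9 tested genes were higher in dTAG-13 members, among them Stmn2 at 73.2 and 157 CPM, and 1 was lower. The list median was 0.08, where 3.91% of all genes were higher and 2.67% lower. The transcription factors Ebf1 and Lhx1, also higher, reached the mean of 5 CPM only through the dTAG-13 library, which settles their direction. Dcx, a microtubule protein of young neurons, gave 1 UMI in all members of each library. The 17 S phase genes and 18 G2 and M phase genes had median log2 ratios of -0.05 and -0.00 between dTAG-13 and untreated members, and none differed by 1.5-fold.

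By axial level the members ran from low to high, and the libraries held the low and high ranges in different proportions. The summed level of Hox groups 5 to 9, which mark trunk levels, ran from 0 through a median of 13.8 to 35.9 UMIs per 10000 in untreated members and from 0 through a median of 0.416 to 38.4 in dTAG-13 members. It was 0 in 32 of 226 and in 50 of 109 cells. Between 4 and 6 per 10000 lay 5 untreated and 2 dTAG-13 members, a narrow window on a scale that reaches 38.4. Cells outside the rule were also few there, 242 of 6420 untreated and 335 of 7071 with dTAG-13, so this is not particular to members. A line at 5 per 10000, set after the values were seen, is used below to describe Hox-high and Hox-low members, which are ranges of a measured level and not cell types. Naive pluripotent cells at or over that line were 9% and 10.1%.

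**Figure D1:**
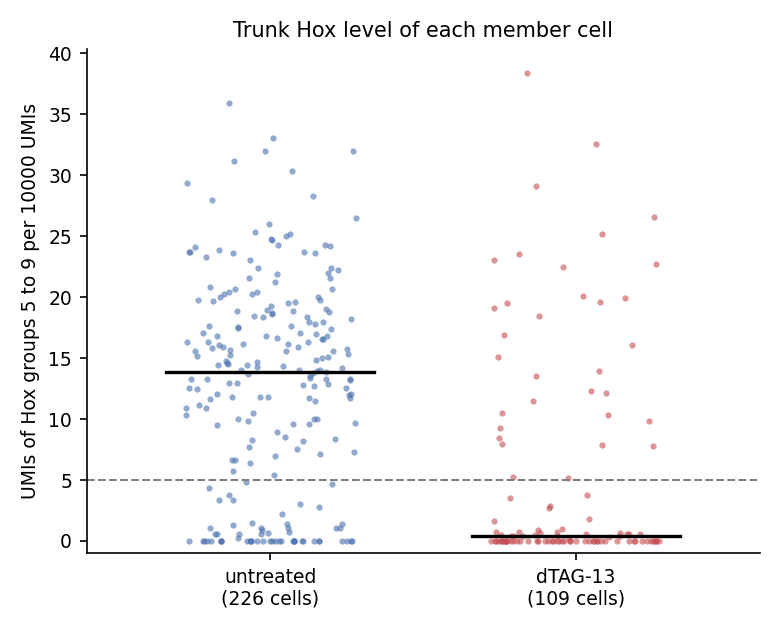
Each point is 1 member cell, the vertical axis is its UMIs of Hox groups 5 to 9 per 10000 UMIs, the black bars are medians and the dashed line is at 5. Most of the 226 untreated members lie above the line (median 13.8) and most of the 109 dTAG-13 members at or near 0 (median 0.416).

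The smaller number of members with dTAG-13 lay in the Hox-high range. Hox-high members were 168 of 6646 untreated cells (2.53%, 2.16 to 2.93) and 33 of 7180 dTAG-13 cells (0.460%, 0.317 to 0.645), which is 5.50-fold fewer (3.77 to 8.25). Hox-low members were 58 cells (0.873%, 0.663 to 1.13) and 76 cells (1.06%, 0.835 to 1.32), and their ratio of 0.824 had an interval (0.576 to 1.18) that spans 1. Among the Hox-high cells themselves the median Hox level was 16.1 per 10000 in both libraries. Among all cells outside the rule, those at or over 5 per 10000 were 61.5% untreated and 41.5% with dTAG-13, a difference in the same direction. Thinned to 5000 UMIs, 70.8% of untreated members (64.4 to 76.6) and 31.2% of dTAG-13 members (22.7 to 40.8) had group 9 as their highest Hox group. Members without any Hox UMI at that depth were 8.85% (5.49 to 13.3) and 45.9% (36.3 to 55.7), against 74.9% and 71.8% of naive pluripotent cells.

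**Figure D2:**
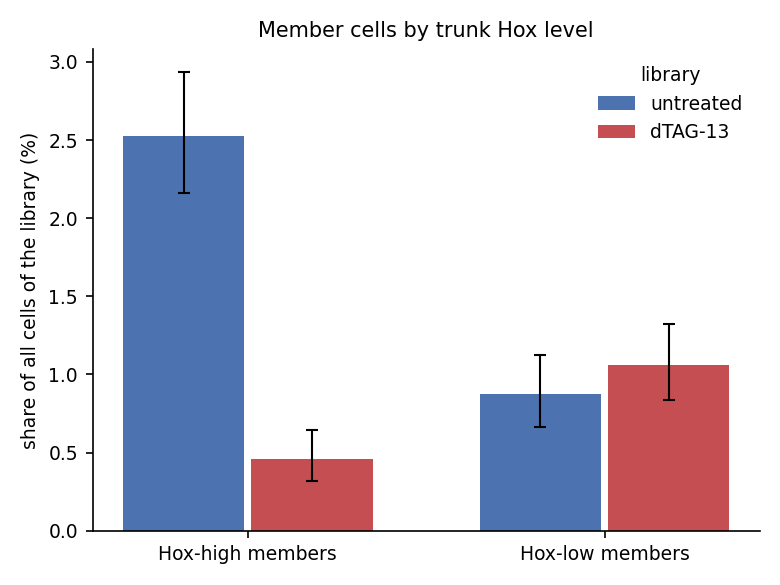
Bars are the share of all cells of a library that are Hox-high or Hox-low members, with exact 95% binomial intervals. The Hox-high share is 2.53% untreated and 0.460% with dTAG-13 with intervals that do not overlap, and the Hox-low shares of 0.873% and 1.06% have overlapping intervals.

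Within the summed members, 20 Hox genes were lower with dTAG-13 and none was higher. In all, 3.91% of genes were higher and 2.67% lower in dTAG-13 over untreated members, with a median log2 ratio of 0.02. Of Hox groups 1 to 4, which mark hindbrain and neck levels, 10 of 11 tested genes were lower (median -0.99), and of groups 5 to 9, 10 of 11 (median -0.90). The exceptions were Hoxa2 (35.1 against 32.5 CPM) and Hoxb5 (11.4 against 9.48 CPM). No gene of groups 10 to 13 reached 5 CPM. Hoxb9 was the most abundant Hox gene, at 599 CPM untreated and 310.2 CPM with dTAG-13 (log2 ratio -0.95, -1.06 to -0.84). Hoxb8 stood at 237 and 115 CPM, Hoxc8 at 133 and 55.2 CPM (-1.26), and Hoxb4 at 155 and 68.1 CPM (-1.18). Hoxb5os, an RNA of the HoxB cluster, stood at 292 and 80.3 CPM (-1.85), and whether its reads can be told from those of overlapping genes was not tested.

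**Figure D3:**
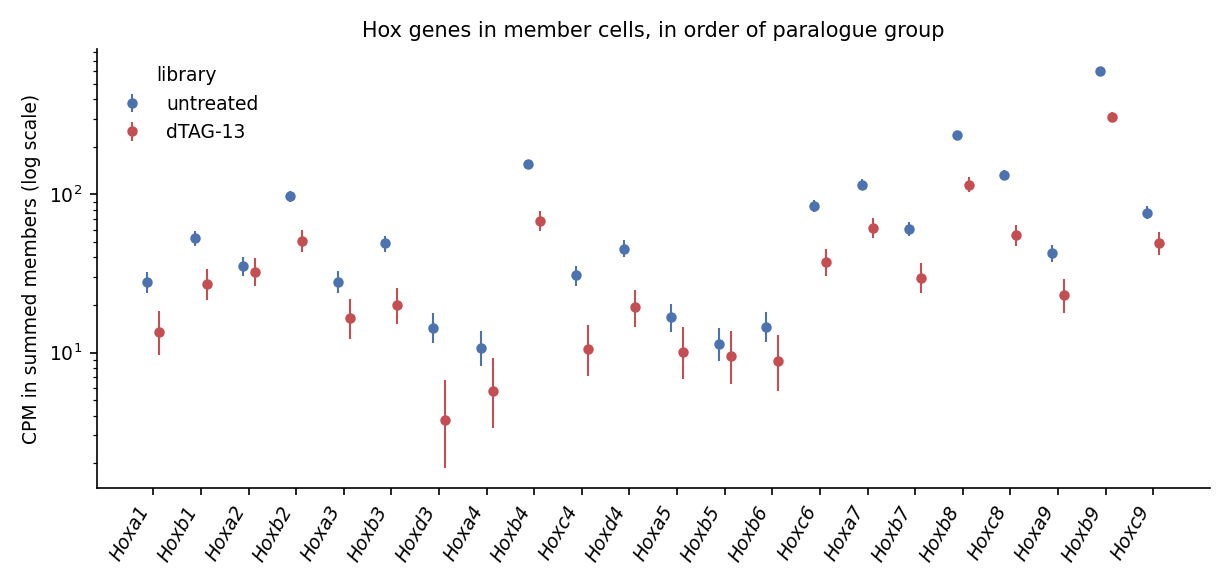
Points are the CPM of each tested Hox gene in the summed members of each library on a log axis, ordered by paralogue group, with exact 95% Poisson intervals. Hoxa2 and Hoxb5 differ by less than 1.5-fold, and the other 20 genes are lower with dTAG-13.

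The lower Hox level did not hold cell by cell in the Hox-high range. There Hoxb9 stood at 745 CPM untreated and 758 CPM with dTAG-13 (log2 ratio 0.03, -0.08 to 0.13), and Hoxa7 at 143 and 149 CPM. The range was set on these genes, so this describes the ranges and supports no comparison. Hoxb2 and Hoxd3 were not used to set it. In the Hox-low range Hoxb2, a rhombomere gene, stood at 98.8 CPM untreated and 24.9 CPM with dTAG-13 (-1.95), and Hoxd3 at 16.0 and 1.13 CPM, while in the Hox-high range Hoxb2 stood at 97.1 and 90.4 CPM. The Hox-low members of the untreated library thus held hindbrain-level Hox RNA that those of the dTAG-13 library held less of.

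Hox-low members held more RNA of some anterior neural genes. Of the genes tested between Hox-low and Hox-high members, 6.46% were higher and 6.94% lower untreated, and 8.29% and 8.15% with dTAG-13. Crabp1 stood at 421 CPM in Hox-high and 2978 CPM in Hox-low untreated members, and at 448 and 1874 CPM with dTAG-13. The median Hox-high cell held 1.90 Crabp1 UMIs per 10000 untreated and 0.898 with dTAG-13, and the highest held 60.8 and 96.2. Fabp7 stood at 37.3 and 340.3 CPM untreated and at 22.0 and 187 CPM with dTAG-13. En2, a midbrain and anterior hindbrain factor, gave 2 UMIs in Hox-high and 13 in Hox-low untreated members, and 0 and 28 with dTAG-13. Pax5, of the midbrain-hindbrain boundary, gave 7.60 CPM in Hox-low untreated and 13.6 CPM in Hox-low dTAG-13 members, against 1.25 and 0.845 CPM in Hox-high members. The hindbrain gene Irx2 stood at 92.9 and 66.7 CPM in Hox-low against 30.2 and 24.5 CPM in Hox-high members. Of the hindbrain list without its Hox genes, 3 of 7 tested genes were higher and 1 lower in Hox-low members untreated, and 2 of 6 higher and 1 lower with dTAG-13, the lower one being Gbx2. Of the 19 genes of the forebrain and midbrain list few were tested, of which 1 of 2 was higher untreated and 3 of 4 with dTAG-13, and none lower. A gene high in 1 range alone can reach the mean of 5 CPM, which settles its direction. En2 and Pax5 did so with dTAG-13 through Hox-low members, so these counts are a description and not a test. Caudal genes were low in Hox-low members, with 6 of 7 tested genes lower than in Hox-high members untreated and 6 of 8 with dTAG-13. Cdx2, a caudal axial regulator, stood at 80.8 CPM in Hox-high and 6.75 CPM in Hox-low untreated members and at 113 and 10.7 CPM with dTAG-13.

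The Hox-low cells were shallower. Their median was 18912.5 and 21151.5 UMIs per cell, against 24476 and 30366 UMIs in Hox-high members, and the part of depth in these values was not tested. The median over cells of the neural progenitor list was 51.5 UMIs per 10000 in Hox-low and 19.2 in Hox-high untreated members, and 33.2 and 15.6 with dTAG-13. In all other cells it was 8.42 and 6.43. Medians over cells of the pluripotent list were 0 in both untreated ranges and 0.668 in Hox-high and 0.455 in Hox-low dTAG-13 members. Those of the presomitic mesoderm list were at most 0.411 in the 4 ranges, and those of the non-neural ectoderm list were 0 except in Hox-high dTAG-13 members, at 0.755.

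Zeb2, the tagged gene, was higher in dTAG-13 members at the RNA level, which says nothing of the protein. Members held 112 CPM of it untreated (104 to 121) and 221 CPM after dTAG-13 (205 to 239). The log2 ratio was 0.98 (0.83 to 1.14), and the level was 65.6 and 91.4 CPM in the other cells. Both ranges showed it, with 109 and 217 CPM in Hox-high and 122 and 224 CPM in Hox-low members. At 5000 UMIs, 42.0% of untreated and 66.1% of dTAG-13 members held a Zeb2 UMI, against 5.02% and 8.10% of naive pluripotent cells. Its relative Zeb1 stood at 42.8 and 37.6 CPM.

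Nearly all tested epithelial genes were higher in dTAG-13 members. Of 30 listed genes of cell junctions, keratins and their regulators, 17 reached the mean of 5 CPM, which a gene high in 1 library alone can do, and 16 of these were higher and none lower (median log2 ratio 1.55). The exception was Spint2, a protease inhibitor, at 0.52. Cldn7, a tight junction claudin, stood at 8.02 CPM untreated (5.91 to 10.6) and 50.5 CPM after dTAG-13 (42.7 to 59.2), and its log2 ratio was 2.51 (2.17 to 3.15). Cldn6 stood at 4.68 and 23.4 CPM (2.10). Epcam, an epithelial adhesion protein, stood at 73.9 and 244.8 CPM (1.72), and the keratins Krt8 at 14.5 and 52.8 CPM (1.79) and Krt18 at 15.7 and 53.5 CPM (1.71). Cdh1 (E-cadherin) stood at 5.01 and 16.6 CPM, while Cdh2 (N-cadherin), the cadherin of neural tissue, stood at 127 and 102 CPM (-0.32).

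The members remained low in these genes beside the rest of the gastruloids. The summed epithelial list was 241 CPM in untreated and 717 CPM in dTAG-13 members, against 651 and 1688 CPM in the other cells, and 17 of 18 and 22 of 24 tested genes were lower in members than in others. The log2 ratio of Cldn7 between the libraries was 2.33 in the other cells, where 2.47% of genes were higher and 0.996% lower, and whether it differed from that in members was not tested. Epcam is abundant in naive pluripotent cells, where 65.3% and 72.5% of cells held a UMI at 5000 UMIs, against 19.5% and 45.0% of members. Cldn7 was found in 2.21% and 15.6% of members and in 11.4% and 23.0% of naive pluripotent cells. The part of free RNA in the members' epithelial UMIs was not tested.

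Within the Hox-high range the epithelial difference was larger over cells. All 19 tested genes were higher with dTAG-13 (median 1.80), where 6.86% of genes were higher and 5.57% lower, and in the Hox-low range 11 of 14 were higher (median 1.05), where 8.51% were higher and 6.34% lower. Here too a gene high in 1 library alone can reach the mean of 5 CPM, which settles its direction. Over both ranges, 11 listed genes reached that mean among untreated and 23 among dTAG-13 members. The 19 and 14 genes are not the same set, so their medians are not like for like. The median cell held 0.995 epithelial UMIs per 10000 in Hox-high untreated and 6.98 in Hox-high dTAG-13 members, and 1.12 and 1.25 in Hox-low members. The list was at 0 in 32 of 168 untreated but 2 of 33 dTAG-13 Hox-high cells. These counts are without thinning, and the dTAG-13 cells were deeper, at a median of 30366 against 24476 UMIs. Epcam stood at 65.8 and 298 CPM in Hox-high and 106 and 209 CPM in Hox-low members, and Cldn7 at 7.71 and 44.8 CPM and at 9.29 and 54.3 CPM. The difference between the ranges was not tested. Without putative doublets and without cells holding genes of other types, 159 untreated and 23 dTAG-13 Hox-high cells gave Cldn7 a log2 ratio of 2.53 and Epcam one of 2.05, and the epithelial list a median of 1.6.

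Promoters were read for the 2 tested epithelial genes of largest ratio among those with a promoter entry. Both hold the sequence CACCTG, an E-box of the kind that Zeb factors are known to bind. Each 30-base stretch is shown on the plus strand of GRCm38.p6 from RefSeq, 5′ to 3′, with CACCTG or its complement CAGGTG in capitals. They lie 97 and 57 bases before the start of Cldn7 and 93 bases before that of Cldn6.
Cldn7 site at chr11:69965312-69965341: tttcttcctcttCACCTGgacgaggagggg
Cldn7 site at chr11:69965352-69965381: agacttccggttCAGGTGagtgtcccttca
Cldn6 site at chr17:23679260-23679289: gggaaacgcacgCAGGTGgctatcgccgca
Within 250 bases before the start, CACCTG on either strand was found in 14 of the 19 epithelial list genes with an entry and in 19.4% of 27025 genes in all. The list was chosen with results of these data known, and a match is a description, not a bound site.

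Some lists of other non-neural cell types were also higher, and some of these share genes with the epithelial list. Other lists were not higher. In untreated and dTAG-13 members the presomitic mesoderm list summed to 63.5 and 62.6 CPM and the somite list to 50.1 and 44.0 CPM. The neural crest list summed to 40.1 and 40.3 CPM and the endothelium list to 5.51 and 5.08 CPM. All 4 tested genes of the non-neural ectoderm list, Tfap2c, Dlx5, Grhl3 and Sfn, were higher in dTAG-13 members, and the list of 17 genes summed to 33.6 CPM untreated and 88.0 CPM with dTAG-13, with 2 and 3 genes at 0. Grhl3 and Sfn are also on the epithelial list. Dlx5 stood at 1.84 and 13.5 CPM, so it reached the mean of 5 CPM only through the dTAG-13 library. The pluripotent list of 12 genes summed to 40.3 and 95.8 CPM in members, with 1 and 0 genes at 0, against 757 and 983 CPM in other cells. Pou5f1 stood at 9.36 and 31.5 CPM (log2 ratio 1.65). The endoderm list of 8 genes, which shares Cldn6 with the epithelial list, summed to 25.2 and 118.5 CPM, with 0 and 1 at 0. The median member held 0 UMIs of the endoderm list in both libraries. Its gene Trh, a hormone precursor, had 112 of its 188 dTAG-13 UMIs in 1 cell. Of the epiblast list, 5 of 6 tested genes were higher and 1 lower (median 1.11), and its 10 genes summed to 129 and 288 CPM, with none at 0. Dnmt3b, a DNA methyltransferase of the epiblast, stood at 47.1 and 107 CPM. The part of these genes in the epithelial result was not tested. Without the 12 and 18 members holding genes of other cell types, the epithelial list had a median of 1.51, Cldn7 a ratio of 2.80 and Epcam one of 1.78.

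Id1 and Id2, direct targets of BMP signalling that block neural differentiation factors, were higher with dTAG-13. Id1 stood at 122 CPM untreated (113 to 131) and 303 CPM after dTAG-13 (283 to 323), and its log2 ratio was 1.30 (1.17 to 1.45). Id2 stood at 131 and 279 CPM (1.08) and their relative Id3 at 338 and 467 CPM (0.47), short of 1.5-fold. Id4 stood at 1.50 and 7.11 CPM, below the mean tested. In the other cells Id1 differed by 0.42. Of the BMP response list, 2 of 6 tested genes were higher and none lower (median 0.39), the 2 being Id1 and Id2, where 3.91% of all genes were higher and 2.67% lower. In the Hox-high range 4 of 6 were higher (median 0.67), where 6.86% of all genes were higher and 5.57% lower. In the Hox-low range 4 of 8 were higher and 1 lower (median 0.43), where 8.51% were higher and 6.34% lower. The tested genes are not the same set, so these medians are not like for like. Id1 was higher in both ranges, at 104 and 236 CPM in Hox-high and 196 and 347 CPM in Hox-low members. Id3 was higher in the Hox-high range, at 311 and 496 CPM, and stood at 448 CPM in both libraries in the Hox-low range. At 5000 UMIs, 38.5% of untreated and 66.1% of dTAG-13 members held an Id1 UMI, against 7.63% and 11.0% of naive pluripotent cells.

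In summed counts, the Notch target Hes5 differed by range. It stood at 112 CPM in untreated (103 to 120.4) and 76.2 CPM in dTAG-13 members (66.6 to 86.8), a log2 ratio of -0.55 (-0.78 to -0.33), short of 1.5-fold. In Hox-high members it stood at 111 CPM in 121 of 168 untreated cells and 21.1 CPM in 13 of 33 dTAG-13 cells (-2.34, -3.04 to -1.82). In Hox-low members it stood at 114 CPM in 33 of 58 and 113 CPM in 38 of 76 cells (-0.01, -0.33 to 0.31). The median Hox-low cell was nevertheless lower, at 0.522 Hes5 UMIs per 10000 untreated and 0.0941 with dTAG-13. The highest Hox-low cell held 9.50 and 16.9. In Hox-high members the medians were 0.577 and 0. In the cells outside the rule Hes5 differed by -1.81, from 43.8 to 11.8 CPM. Without putative doublets and cells with genes of other types, the Hox-high ratio was -2.54. The difference between the ranges was not tested.

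Few other genes of the pathway differed. Of 13 Notch pathway genes tested in all members, none differed by 1.5-fold (median 0.08), in the Hox-high range Hes5 was the only one of 11 that did so, and in the Hox-low range Dll1 was the only one of 11, at 22.8 and 14.1 CPM. The receptor Notch1 stood at 24.2 and 25.7 CPM, the ligand Dll1 at 19.2 and 14.2 CPM, the target Hes1 at 52.5 and 59.6 CPM and the feedback gene Nrarp at 12.7 and 13.9 CPM. Hes3, a related gene of early neural progenitors that was not on the list, stood at 56.7 and 23.7 CPM (-1.22). The promoter of Hes5 is shown as the gene of the pathway whose level differed, at chr4:154960673-154960922 on the plus strand of GRCm38.p6, from RefSeq, with capitals for TGGGAA, the core of the site known for the Notch effector Rbpj, for its complement TTCCCA, and for CACCTG.
Hes5 promoter: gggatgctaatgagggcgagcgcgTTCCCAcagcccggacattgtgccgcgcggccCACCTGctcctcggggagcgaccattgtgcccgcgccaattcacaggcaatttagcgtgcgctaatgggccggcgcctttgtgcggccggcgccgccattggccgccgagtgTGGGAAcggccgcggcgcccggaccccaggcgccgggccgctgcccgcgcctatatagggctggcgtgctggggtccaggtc
TTCCCA begins 226, CACCTG 194 and TGGGAA 82 bases before the start. TGGGAA on either strand was found in 24.1% of genes, and in 4 of 14 Notch list genes with an entry.

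**Figure D4:**
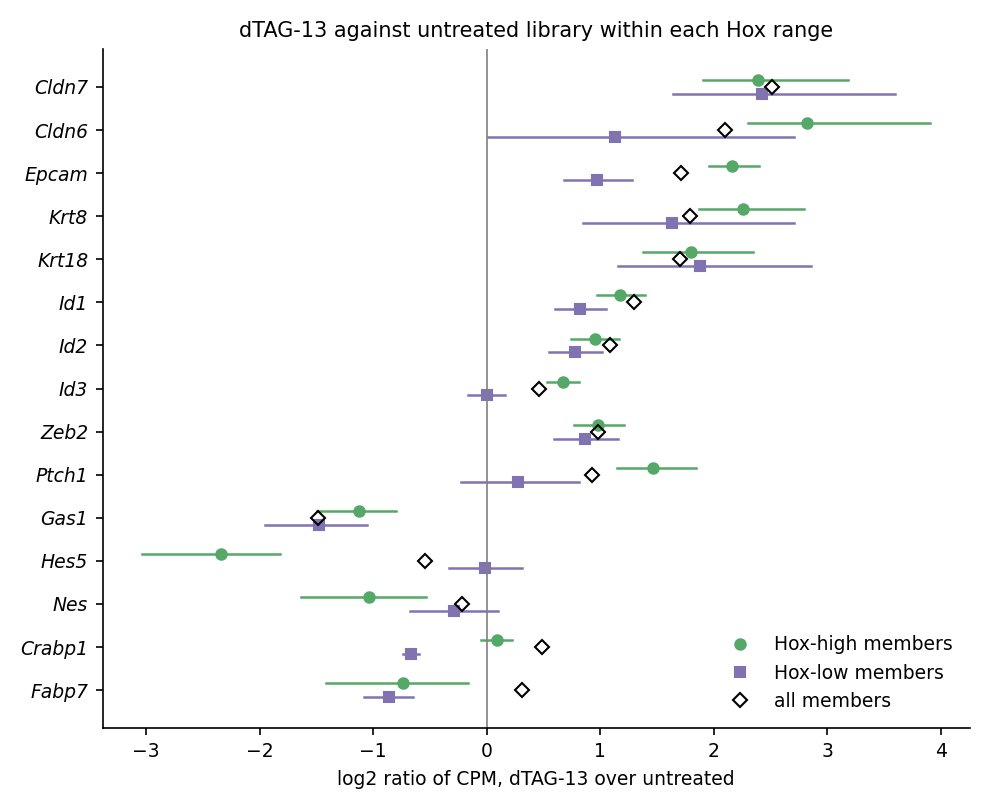
Points are log2 ratios of CPM, dTAG-13 over untreated, in Hox-high members (circles), Hox-low members (squares) and all members (open diamonds), and lines are exact 95% intervals of the counts. Hes5 lies at -2.34 in the Hox-high and -0.01 in the Hox-low range, Cldn7 near 2.4 in both, and Fabp7 is above 0 over all members (0.31) but below it in both ranges.

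Fabp7 and Crabp1 show how the mix of ranges enters a value over all members. Summed over all members Fabp7 went from 97.3 CPM untreated to 120.9 CPM (log2 ratio 0.31), yet it was lower with dTAG-13 within both ranges (-0.74 in Hox-high, -0.86 in Hox-low). Crabp1 differed by 0.49 over all members, 0.09 in Hox-high and -0.67 in Hox-low members. The neural progenitor list as a whole had a median of 0.02 over all members with 3 of 19 genes lower, -0.35 with 7 of 19 lower and 1 higher in the Hox-high range, and -0.16 with 5 of 18 lower in the Hox-low range. Of all genes, 6.86% were higher and 5.57% lower in the Hox-high range, and 8.51% and 6.34% in the Hox-low range. In the Hox-high range Nes, an intermediate filament of neural progenitors, stood at 56.5 and 27.0 CPM, and the dorsal neural factor Zic1 at 21.7 and 5.07 CPM. Without putative doublets and cells with genes of other types, the Hox-high median of the list was -0.01, and the Hox-high ratio of Fabp7 was -0.53 with an interval that spans 0 (-1.29 to 0.13).

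Dorsal genes were found in more members than intermediate or ventral genes, in similar shares of both libraries. The rule chose members partly by the dorsal genes Pax3 and Msx3 and by no gene of the ventral class. This order therefore follows in part from that choice and is not a test. At 5000 UMIs, 32.3% of untreated (26.3 to 38.8) and 28.4% of dTAG-13 members (20.2 to 37.9) held a UMI of Pax7, Msx1, Wnt1, Gdf7, Lmx1a or Olig3, against 3.82% and 7.59% of naive pluripotent cells. Without thinning these shares of members were 65.9% and 65.1%. Most of these cells held Msx1, a dorsal and BMP-responsive factor, found in 23.0% and 20.2% of members at that depth. T and Sox2 double-positive cells, which are not neural by the rule, held a dorsal gene in 31.1% and 37.8%, so the class does not mark dorsal spinal cord alone. Pax7, a dorsal progenitor factor, was found in 7.08% and 5.50% of members and 0 of 498 and 4 of 790 naive pluripotent cells.

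Intermediate genes were rarer. A UMI of Dbx1, Dbx2, Gsx1 or Gsx2 was found in 4.87% (2.45 to 8.54) and 2.75% (0.571 to 7.83) of members, against 0.803% and 0.886% of naive pluripotent cells, and the dTAG-13 interval includes the latter share. Without thinning, 15.0% and 7.34% of members held one. Prdm13, a factor of dorsal interneuron progenitors, was found in 9 of 226 untreated and 0 of 109 dTAG-13 members, and 0 of 109 allows a share of up to 2.75%, taken as 3 counts of the total (exact upper limit 3.33%). Without thinning it gave 31 UMIs in 27 untreated and 2 UMIs in 2 dTAG-13 members.

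As a class, ventral genes were not found in more members than naive pluripotent cells. Nkx6-1, Nkx6-2, Olig2, Nkx2-2 or Foxa2 was found in 2.65% (0.980 to 5.69) and 8.26% (3.85 to 15.1) of members, against 2.81% and 6.96% of naive pluripotent cells. Without thinning the shares were 9.29% (5.84 to 13.85) and 21.1% (13.87 to 29.96) of members, with intervals that just do not overlap, and 12.6% and 25.03% of naive pluripotent cells. The genes of the class differed. Without thinning Nkx6-1, a ventral progenitor factor, was found in 10 of 226 (4.42%) and 4 of 109 members (3.67%) and in 0 of 500 and 12 of 791 naive pluripotent cells (1.52%). Nkx6-2 was found in 7 of 226 and 9 of 109 members and in 9.2% and 14.9% of naive pluripotent cells, so the class share of the latter is no measure of free RNA alone. The floor plate ligand Shh and the ventral factor Nkx2-2 gave no UMI in any member. After thinning, the intervals of all 3 classes overlapped between the libraries.

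**Figure D5:**
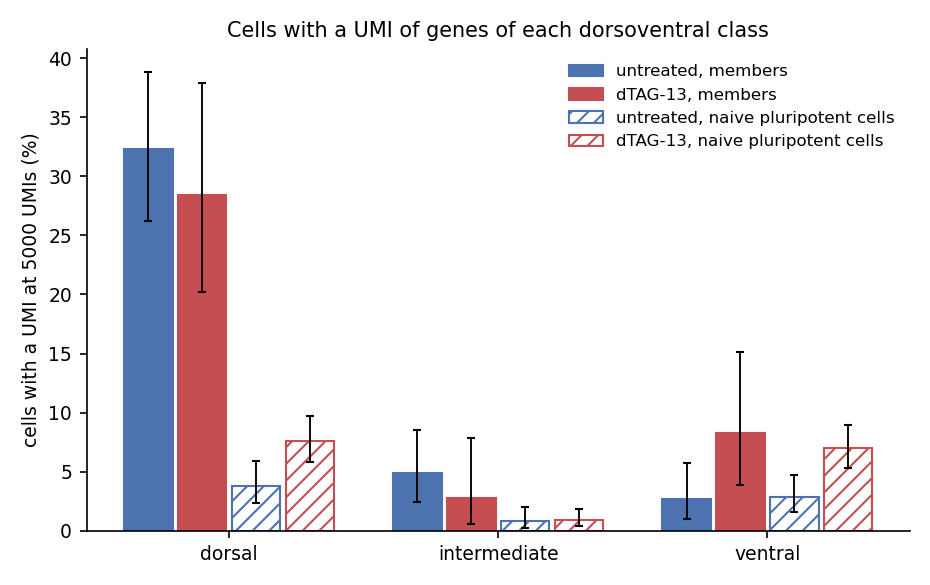
Bars are the share of cells with a UMI of a gene of each dorsoventral class after thinning to 5000 UMIs, in members (filled) and naive pluripotent cells (hatched) of each library, with exact 95% binomial intervals. Dorsal genes stand above the naive pluripotent cells in both libraries (32.3% and 28.4%), and ventral genes do not. The rule that chose the members used the dorsal genes Pax3 and Msx3 and no ventral gene.

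Genes of hedgehog response went both ways. The receptor and target Ptch1 stood at 36.9 CPM untreated and 71.1 CPM with dTAG-13 (log2 ratio 0.93), and this lay in the Hox-high range, at 35.6 and 101 CPM, with 42.2 and 51.4 CPM in the Hox-low range. The co-receptor Gas1 stood at 137 and 48.4 CPM (-1.48) and was lower in both ranges, at 145 and 65.9 CPM and at 104 and 36.7 CPM. Of 6 tested genes of the list, these 2 were the only ones past 1.5-fold. The difference of Ptch1 between the ranges was not tested.

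Genes of retinoic acid handling also went both ways, with 2 of 9 tested genes higher and 2 lower, where 3.91% of all genes were higher and 2.67% lower. Cyp26b1, which breaks retinoic acid down, stood at 3.34 and 11.5 CPM (1.53), so it reached the mean of 5 CPM only through the dTAG-13 library. It gave 20 UMIs untreated and 34 with dTAG-13, 10 of the latter in 1 cell. Aldh1a2, the enzyme that makes retinoic acid, stood at 17.4 and 5.42 CPM (-1.52). In untreated members 102 of its 104 UMIs lay in Hox-high cells. Crabp2 stood at 455 and 341 CPM (-0.41).

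Of the remaining signalling lists, 1 of 9 WNT response genes was higher and none lower (median -0.03), and none of 10 FGF response genes was higher and 1 lower (median -0.04). That gene was Fgfbp3, an FGF carrier, at 136 and 72.1 CPM (-0.91), and lower in Hox-high (-1.23) than in Hox-low members (-0.29), a difference that was not tested. Among the largest ratios outside the lists, the uridine phosphorylase Upp1 stood at 34.3 and 84.0 CPM (1.27) and Efnb2, an ephrin ligand, at 14.9 and 38.3 CPM (1.31). Efnb2 was mostly a gene of Hox-low members, at 39.7 and 54.8 CPM there against 8.75 and 13.5 CPM in Hox-high members. Fgf15, an FGF ligand of the early neural tube, stood at 46.8 and 111 CPM (1.23), and at 94.6 and 157 CPM in Hox-low against 35.0 and 43.1 CPM in Hox-high members. Emb stood at 75.7 and 178 CPM, with 108 of its 526 dTAG-13 UMIs in 1 cell. Irx1, an Iroquois factor, was among the lowest at 34.3 and 13.5 CPM (-1.28), and in the Hox-high range it stood at 34.8 and 5.07 CPM (-2.56). Tanc2, a scaffold protein of synapses, stood at 43.8 and 13.2 CPM (-1.66).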

How the data were processed

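The deposited counts are whole-number UMI counts per gene and barcode for 32285 genes in 2 libraries, made by the authors with Cell Ranger 6.1.2 on mm10, per the submitters' processing notes. The sources used here do not say whether counting was stranded. Gene IDs matched GENCODE M21 for 32158 genes. Barcodes with under 1000 genes or over 10% mitochondrial UMIs were removed (630 untreated, 693 dTAG-13). Putative doublets were kept: Scrublet in scanpy 1.11.5 marked 1 and 0 barcodes by its own threshold, too few to be credible, and 424 and 496 by rank at 0.8% per 1000 barcodes.

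UMIs were summed over member cells and scaled to CPM. Log2 ratios used a prior of 1 CPM, and their intervals are exact and conditional on the sum of both counts, with no prior added, so at low CPM they can miss the ratio. Shares have Clopper-Pearson intervals. Thinning to 5000 UMIs used a fixed seed. With 1 library per group nothing was tested. edgeR 4.0.16 and DESeq2 1.42.0 gave scaling factors only, as alternatives, and the code was tested on simulated data.

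The members and lists were chosen with earlier results of these data known. Named genes were the 12 highest and 12 lowest ratios with a mean of at least 20 CPM, without predicted, mitochondrial and ribosomal genes, up to 4 genes per list, and genes of the dorsoventral, Hox and Notch lists. Nes, Irx2, Cdx2, Cdh1, Cdh2, Id3, Stmn3, Egr2 and the split at 5 Hox UMIs per 10000 were chosen after values were seen. Some genes first planned for the intermediate class and the lists are not reported here and were left out of them.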

Additional observations from a re-analysis of the deposited data

Results flagged for a closer look

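A few genes differed in opposite directions between the libraries in member cells and in all other cells, with intervals of the counts on opposite sides of 0, and none of these differences was tested. Cited1, a transcriptional coregulator of mesoderm, had a log2 ratio of dTAG-13 over untreated of 0.83 in members and -0.74 in the other cells. Ebf1, a factor of early neurons and mesoderm, had 1.62 and -0.51, and En2 1.58 and -0.26. The caudal and boundary signals Fgf17 (1.15 and -0.28) and Fgf3 (0.77 and -0.68) were higher in dTAG-13 members too. Jun (-0.69 and 0.40) and the epiblast and neural factor Pou3f1 (-0.61 and 0.84) were lower in dTAG-13 members. The counts are low: Ebf1 gave 17 UMIs untreated and 32 with dTAG-13, and En2 15 and 28.

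The somite gene Tcf15 had a ratio of 1.05 in Hox-high and -1.67 in Hox-low members, also not tested. It gave 25 and 14 UMIs in Hox-high members and 9 and 3 in Hox-low members, and 11 of the dTAG-13 UMIs lay in 1 cell.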

How the results depend on the processing

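With 1 library per group, counts, shares and ratios carry counting error only, and no replicate could be left out. No paired analysis was possible because each group has 1 library. Low counts limit the Hox-high dTAG-13 values most, since 33 cells carry them. Among the values that answer a comparison, TMM factors (0.980 to 1.02), DESeq2 size factors (0.983 to 1.02), a mean over cells, removal of putative doublets, a minimum of 2500 genes and removal of cells with genes of other types moved none beyond its counting error, 1.5 times for counts of genes, or the median half-width of the members' intervals for list medians.

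Members were 3.40% and 1.52% of cells. With at least 2 of the 6 genes they were 6.71% and 3.58%, 137 genes were lower with dTAG-13 (249 as reported), members over other dTAG-13 cells had 208 genes higher and 391 lower (425 and 655), the dTAG-13 share without Hox was 35.0% and the dTAG-13 Hox-low share 59.1%. With at least 4 of 6 they were 1.66% and 0.627%, 756 genes were higher (365 as reported) and 562 lower, 865 were higher over other dTAG-13 cells, the median of Hox groups 5 to 9 was -1.43, and in dTAG-13 members the dorsal share was 15.6%, the group 9 share 20% and the Hox-low share 80%. At most 5% mitochondrial UMIs gave 4.40% and 2.18%, an untreated dorsal share of 22.6% and Trh at -0.10.

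Applied after thinning, the rule left 26 and 9 cells (0.396% and 0.127%, 3.13-fold), and values from them are thin: 2525 genes higher and 2798 lower, 2285 and 1788 over other untreated and 2677 and 2912 over other dTAG-13 cells, medians of -3.41 for Hox groups 1 to 4, -5.78 for groups 5 to 9 and 1.24 for BMP response, untreated shares of 0% ventral and 15.4% without Hox, dTAG-13 shares of 0% intermediate, 0% ventral, 0% group 9 and 100% Hox-low. Krt8 (-5.30), Ptch1 (-5.30), Hes5 (1.23) and Id3 (-0.26) reversed there. The thinned rule also picks other cells and drops cells under 5000 UMIs, and the cause was not tested. A prior of 5 CPM gave 187 genes higher and 111 lower with dTAG-13, and 208 and 269 higher over other cells untreated and with dTAG-13. All genes with a UMI gave 1296 and 1034, 693 and 1483 over other untreated, and 983 and 2080 over other dTAG-13 cells.

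The following were chosen after seeing the data. Hox-high members gave 636 genes higher and 517 lower, medians of -0.35 for neural progenitor and 0.67 for BMP response genes, and Fabp7 at -0.74. Hox-low members gave 792 and 590 genes, Fabp7 at -0.86, Crabp1 at -0.67 and Id3 at -0.00017. Hox-high members without putative doublets and cells of other types gave 844 and 669 genes, a BMP response median of 0.73, Fabp7 at -0.53 and Trh at -0.81.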

Other observations

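Lhx1, a factor of interneurons, mesendoderm and intermediate mesoderm, stood at 2.84 CPM in untreated and 19.98 CPM in dTAG-13 members (log2 ratio 2.45), with 29 of its 59 dTAG-13 UMIs in 1 cell and 6 cells in all. Neuronal genes differed one by one. Stmn2, a tubulin-binding protein of neurons that other cells also carried (86.8 and 147 CPM), stood at 73.2 and 157 CPM in members. Stmn3 stood at 46.0 and 34.9 CPM, and Gap43, a growth cone protein, at 27.2 and 16.3 CPM.

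The members with Dbx2, a factor of intermediate progenitors, differed between the libraries in Hox level. In the untreated library 25 had it, with a median of 18.2 UMIs of Hox groups 5 to 9 per 10000, against 13.3 in the members without it, and in the dTAG-13 library 4 had it, with a median of 3.99 against 0.416. The members with Cyp26b1 lay at the other end, with a median of 0 in 9 untreated and 14 dTAG-13 cells. Egr2, a gene of hindbrain rhombomeres, gave 14 UMIs in 4 untreated members, whose median Hox level was 0.303 per 10000, and 2 UMIs in 2 dTAG-13 members, at 4.18. Sox17, an endoderm and endothelial factor, was found in 1 untreated and 10 dTAG-13 members.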
